A study of Arabidopsis thaliana with 2 samples.

Results

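The CHX genes of Arabidopsis thaliana encode cation/proton exchangers, and the 10 described here are CHX8, CHX13, CHX14, CHX15, CHX19, CHX21, CHX23, CHX24, CHX25 and CHX28, the genes of the family listed as pollen exchangers. That name is a label and not a contrast in these libraries, since 5 of the 10 stayed below 10 FPKM in both, CHX14 was listed at 0 in each, and 11 of the other CHX genes reached that level in drop. They were picked by gene identifier from a table of 33557 genes, and the family holds 18 further genes in the same table. RNA came from pollen tubes grown through a cut style onto solid medium, collected when they stood 300 to 400 µm outside it. One library was labelled wild type (WT) and the other drop1- drop2- (drop), which is a double mutant. Each pooled tubes of 2 stigmas before Smart-seq2 amplification of polyadenylated RNA. The protocol text mentions double mutant grains for both libraries, so the genotype was taken from the genotype label, and the names DROP1 and DROP2 matched 0 genes of the RefSeq names table, so the mutated genes were not checked. With 1 library per genotype there is no replicate error and no test, and "higher" or "lower" describes these 2 libraries. In pooled tubes, fewer cells of a type and less RNA per cell cannot be told apart.

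CHX proteins belong to the monovalent cation/proton antiporters, membrane carriers that exchange ions such as potassium for protons and so bear on the ion balance and the pH of the cytosol and of internal compartments. Pollen tubes expand at the tip while potassium and proton fluxes run across their membranes. CHX21 and CHX23 are known as a pair: in Arabidopsis, tubes that lack both grow but fail to turn toward ovules, and CHX23 lies in the endoplasmic reticulum membrane. CHX13 takes up potassium at the plasma membrane with high affinity, and CHX14 is a plasma membrane exchanger tied to potassium efflux. CHX19 groups with CHX16, CHX17, CHX18 and CHX20, of which CHX20 acts in guard cells.

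Values are FPKM, a count of fragments scaled by transcript length and by the mapped fragments of the library, which allows levels of different genes to be compared within a library. The deposited columns sum to 1299600 FPKM in WT against 3668030 in drop. The main log2 ratios are therefore given both as deposited and after the drop column was scaled to the WT sum, called equal sums. That is a shift of -1.497 on the log2 scale before the pseudocount. Levels, sums and folds in FPKM are as deposited. As a check of the labelled tissue, the 5 vegetative pollen markers VGD1, AGP11, AGP6, ROP1 and ANX1 all lay above 10 FPKM in both libraries, between 26.01 and 11006 in WT and between 160.3 and 28010 in drop. The sperm marker list (MGH3, HAP2, GEX2, DAZ3, PCR11) summed to 15696 FPKM in WT against 524 in drop, with GEX2 below 1 FPKM in both. The median log2 ratio of the vegetative markers was 1.75 as deposited and 0.25 at equal sums. Of the 5 green tissue markers (RBCS1A, CAB1, PSBO1, LHCA3 and RCA), 2 reached 10 FPKM in WT against 0 in drop, and their sums were 44.3 and 11.8 FPKM. The part of either marker list in the CHX values was not tested.

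CHX23 was the most abundant of the 10 exchangers in both libraries. CHX23 (AT1G05580) stood at 558 FPKM in WT against 2252 in drop. It ranked 205 of all genes in WT and 154 in drop, and these ranks do not depend on how the libraries are scaled. Its share of the summed FPKM of the 10 genes was 78.7% in WT and 75.0% in drop, so that in each library the other 9 genes together held far less than CHX23 alone.

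The promoter window of CHX23 holds the letters of a box known from pollen regulators, and it is shown beside that of CHX24, a gene at the low end of the set. The form CTA, 4 bases of A or T, then TAG is a CArG box bound by MIKC* MADS-box factors of Arabidopsis pollen. Each window is the 250 bases before the annotated gene start in the RefSeq annotation of TAIR10.1, printed 5′ to 3′ on the minus strand, and capitals mark the CArG box and each AGAAA or its reverse complement. The CHX23 window is chr1:1668925-1669174 and the CHX24 window is chr5:14645613-14645862.
CHX23: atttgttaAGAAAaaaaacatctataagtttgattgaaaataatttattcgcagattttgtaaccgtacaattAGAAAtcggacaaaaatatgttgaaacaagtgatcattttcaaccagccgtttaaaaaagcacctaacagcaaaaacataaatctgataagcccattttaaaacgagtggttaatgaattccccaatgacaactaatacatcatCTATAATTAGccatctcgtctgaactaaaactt
CHX24: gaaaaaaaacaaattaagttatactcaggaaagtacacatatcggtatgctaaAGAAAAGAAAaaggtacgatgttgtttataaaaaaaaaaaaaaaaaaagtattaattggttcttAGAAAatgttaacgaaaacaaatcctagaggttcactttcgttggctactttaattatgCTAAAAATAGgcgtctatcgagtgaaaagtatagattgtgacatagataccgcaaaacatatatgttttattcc

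On both strands of these 10 windows, the CArG form was found in CHX23 and in CHX24 once each and in 0 of the others, while 2.15% of 27443 promoters of protein-coding nuclear genes hold it. AGAAA, first described in a tomato pollen promoter, occurred 2 times in the CHX23 window and 3 times in that of CHX24, and it is present in 82.5% of all windows. GTGA, known from a tobacco pollen promoter and not capitalised above, is present in 77.5% of all windows, with 1 match in CHX23 and 3 in CHX24. The 2 genes that share the CArG form lay far apart in level, since CHX24 (AT5G37060) was at 0.472 FPKM in WT against 1.55 in drop. The windows of CHX14, CHX19 and CHX21 overlap other annotated genes. The annotated CHX8 transcript is all coding sequence (2451 bases), so its window ends at the start codon. CHX21 has 3 annotated transcript starts spread over 937 bases, and its window lies before the outermost. These matches describe letters in a window and not binding.

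CHX21, the partner of CHX23 in tube guidance, was much less abundant. CHX21 (AT2G31910) was at 22.9 FPKM in WT against 122 in drop, and CHX23 exceeded it 24.3-fold in WT and 18.4-fold in drop. Both genes were higher in drop as deposited, CHX21 by 5.33-fold and CHX23 by 4.04-fold in FPKM. On the scale log2((drop FPKM + 1)/(WT FPKM + 1)), used for all log2 ratios here and understating the change of low genes, these were 2.36 and 2.01. At equal sums the log2 ratios were 0.89 for CHX21 and 0.51 for CHX23, both above 0 and below the 2-fold line. The proteins of the pair share 70.4% of aligned residues, but 0 of the 2923 stretches of 50 bases in the CHX23 transcript occur in a transcript of another gene. The longest CHX21 transcript shares 35.0% of such stretches with XIF (AT2G31900) and AT2G31920, which overlap it on the other strand. Both of these were below 1 FPKM in each library, while strand use in the authors' counting is not given in the sources used here.

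CHX19 was the exchanger with the highest log2 ratio as deposited and under each other scaling except quantile normalization, where CHX21 was at 1.99 and CHX19 at 1.94. CHX19 (AT3G17630) was at 43.9 FPKM in WT against 265 in drop, a 6.03-fold difference and a log2 ratio of 2.57 as deposited. At equal sums it was 1.08, and CHX19 alone among the 10 passed 2-fold under each of the 5 scalings tried. Outside the 10, CHX6A, CHX11 and the potassium transporter gene KUP2 did so too. At equal sums, 8.86% of all genes of at least 10 FPKM passed 2-fold upward. The share of CHX19 in the summed FPKM of the set was 6.20% in WT and 8.82% in drop. CHX19 was also the only gene of its subgroup at a sizeable level: CHX16 was listed at 0 in both libraries, CHX17 was at 0.267 and 0.190 FPKM, CHX20 at 0.146 in WT and listed at 0 in drop, and CHX18 at 1.39 in WT and listed at 0 in drop. The CHX18 value is uncertain, as 88.3% of the stretches of 50 bases in its transcript also occur in AT5G41612. The closest protein to CHX19 in the family is CHX18, with 63.3% identical residues. The CHX19 gene overlaps AT3G17626 by 139 bases on the same strand, a gene at 2.17 FPKM in WT but listed at 0 in drop. The CHX19 transcript shares no stretch of 50 bases with that gene. It shares 2.82% of its stretches with AT3G03515, a noncoding RNA gene that overlaps it by 356 bases on the other strand and has no deposited value.

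CHX8 was the second most abundant exchanger. CHX8 (AT2G28180) was at 74.4 FPKM in WT against 335 in drop, 4.50-fold apart, with a log2 ratio of 2.15 as deposited and 0.66 at equal sums. CHX23 exceeded it 7.50-fold in WT and 6.73-fold in drop, folds that no scaling by 1 factor per library changes, although quantile normalization does. Next to it on chromosome 2, 1037 bases away on the same strand, lies CHX7, which was at 4.02 FPKM in WT against 24.2 in drop. The closest protein to CHX8 in the family is CHX5, with 44.2% identity.

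CHX15 and CHX28 were lower in level, and as deposited and at equal sums they were less far apart between the libraries than CHX8, CHX19, CHX21 and CHX23. Under quantile normalization their log2 ratios, 1.53 and 1.66, exceeded those of CHX8 at 1.33 and CHX23 at 0.78. CHX15 (AT2G13620) was at 7.04 FPKM in WT against 21.5 in drop, and so passed 10 FPKM through the drop library alone. Its log2 ratio was 1.48 as deposited and 0.098 at equal sums, the lowest of the 5 exchangers that reached 10 FPKM under either scale. CHX28 (AT3G52080) was at 1.73 and 6.18 FPKM, with log2 ratios of 1.40 and 0.22. CHX28 shares 252 bases of the genome with NRPB11, a subunit gene of RNA polymerase II on the other strand that stood at 3.36 and 2.59 FPKM, so its value is uncertain. Against CHX23 within a library, CHX15 was 79.2-fold lower in WT and 105-fold lower in drop.

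The potassium exchangers CHX13 and CHX14 and the pair CHX24 and CHX25 were at or near 0. CHX14 (AT1G06970) was listed at 0 in both libraries. CHX13 (AT2G30240) had 0.058 FPKM in WT, close to the value of 1 fragment, and was listed at 0 in drop. CHX25 (AT5G58460) was listed at 0 in WT and at 0.462 FPKM in drop, about 5.10 estimated fragments, and CHX24 at about 10.2 and 18.3 fragments. These genes come in close pairs, with 72.5% protein identity between CHX13 and CHX14 and 79.8% between CHX24 and CHX25, and 0 of their stretches of 50 bases occur in other transcripts. A value of 0 can be a failed estimate in FPKM, so it is given as listed.

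**Figure D1:**
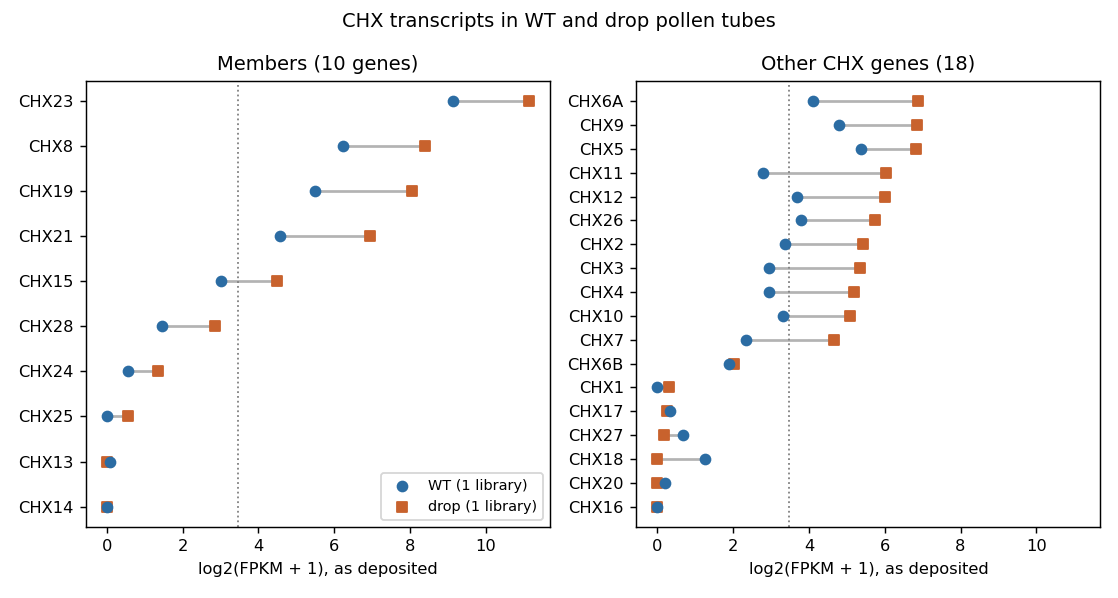
Level of each CHX gene in the WT library (circles) and the drop library (squares), as log2(FPKM + 1) on the horizontal axis, with the 10 exchangers of the set on the left, the other 18 CHX genes on the right and a dotted line at 10 FPKM. CHX23 stands highest at 558 FPKM in WT against 2252 in drop, while CHX13 and CHX14 lie at or near 0 in both.

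**Figure D2:**
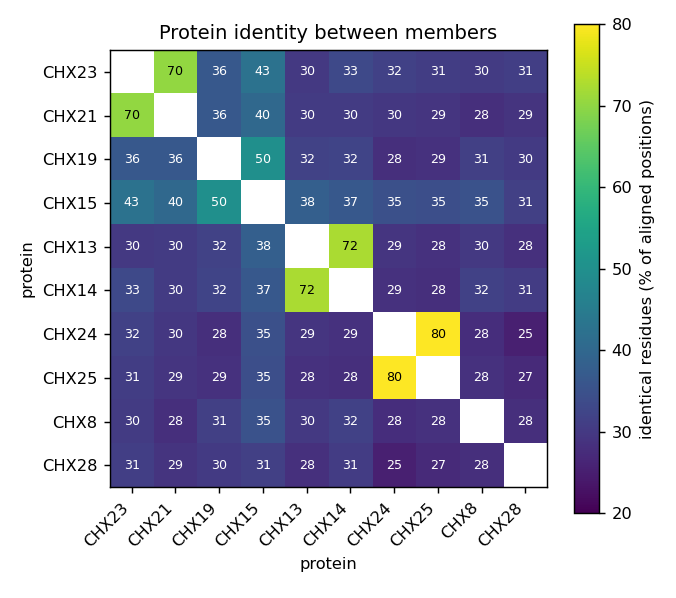
Percent of identical residues over aligned positions between the proteins of the 10 exchangers, from global alignments of the annotated coding sequences. The 45 pairs range from 25.3% to 79.8% with a median of 30.6%, and only the pairs CHX21 and CHX23, CHX13 and CHX14, and CHX24 and CHX25 exceed 70%.

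Sequence likeness did not go with a like level in every pair. The pairs CHX13 with CHX14 and CHX24 with CHX25 were low in both partners, whereas CHX21 and CHX23 differed by over an order of magnitude in both libraries. Proteins of the 10 genes hold between 800 and 867 residues, and the share of CHX23 in the set changed little when counted in estimated fragments without division by length, to 80.4% in WT and 76.7% in drop.

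Counted over the set, 5 of the 10 exchangers (CHX8, CHX15, CHX19, CHX21 and CHX23) reached 10 FPKM in 1 library or both, and all 5 were at least 2-fold higher in drop as deposited, with 0 lower. CHX15 reached 10 FPKM through drop alone, where it is high. Its part in this count, and in the medians over the 5, is no support for a difference. Of all 3633 genes at that level, 45.4% passed 2-fold upward in drop and 27.9% passed it downward. The 7 exchangers with at least 1 FPKM in a library had a median log2 ratio of 2.01, where all 9880 genes at that level had -0.07. CHX24 is among the 7 through drop alone, at 0.472 FPKM in WT against 1.55 in drop. Its part in this median is no support for a difference. Over the 5 exchangers of at least 10 FPKM the median was 2.15, against 0.81 over the 3633 genes. At equal sums 1 of the 5, CHX19, stayed past 2-fold and 0 were lower, against 8.86% of all genes higher and 43.4% lower, and the median over the 5 was 0.66 against -0.60. Each of these 5 rests on at least 144 estimated fragments per library, up to 27299 for CHX23 in drop, with a single fragment estimated at 0.134 FPKM kb for WT and 0.245 for drop.

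The background depends on transcript length and level. Outside the family, 214 genes reach 10 FPKM, have a longest transcript of 2313 to 3132 bases as the CHX genes do, and lie in the range of mean level of the 5 exchangers. Of these, 68.2% were at least 2-fold higher in drop as deposited, with a median log2 ratio of 1.46, and 11.7% with a median of 0.04 at equal sums. The medians of the 5 exchangers, 2.15 and 0.66, lie nearer to these than to those of all 3633 genes. CHX15, which reached 10 FPKM through drop alone, is in these medians and also sets the lower end of the level range.

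**Figure D3:**
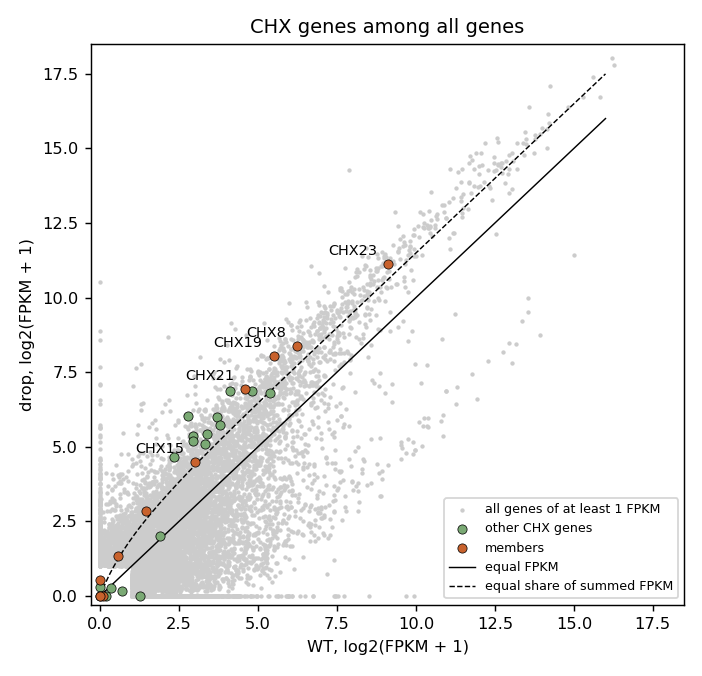
Each gene of at least 1 FPKM in a library (grey), the other CHX genes (green) and the 10 exchangers (orange), as log2(FPKM + 1) in WT on the horizontal and in drop on the vertical axis, with a solid line at equal FPKM and a dashed line at an equal share of the summed FPKM. The exchangers of at least 10 FPKM lie above the solid line and at or above the dashed one, with CHX15 nearest to it at a log2 ratio of 0.098 at equal sums.

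**Figure D4:**
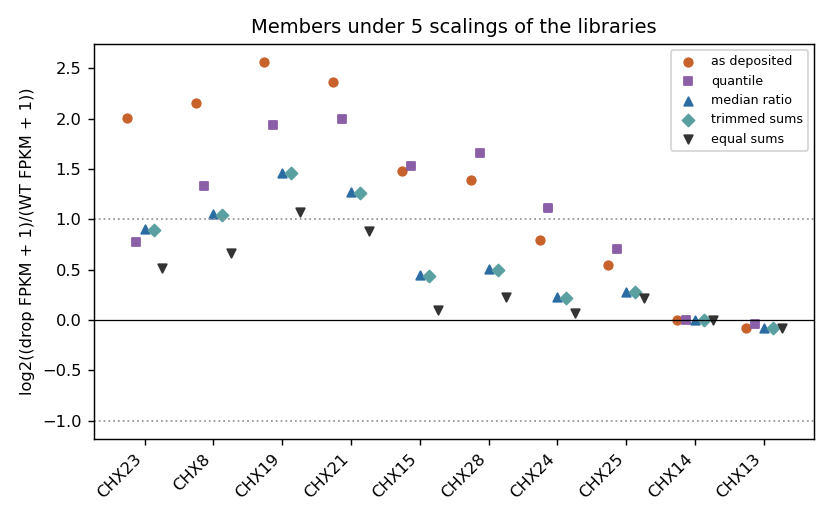
Log2 ratio of drop to WT (vertical axis, FPKM + 1) of each exchanger as deposited and under 4 other scalings of the libraries, ordered by drop level, with dotted lines at 2-fold. CHX23 runs from 0.51 to 2.01 and CHX19 from 1.08 to 2.57, and CHX8, CHX15, CHX19, CHX21 and CHX23 are above 0 throughout.

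The other 18 CHX genes show that pollen tube libraries held more of the family than the 10 exchangers named at the outset. In drop, 11 of the 18 were at 10 FPKM or more (CHX2, CHX3, CHX4, CHX5, CHX6A, CHX7, CHX9, CHX10, CHX11, CHX12 and CHX26), against 5 of the 10, and in WT the counts were 5 and 4. All 11 were at least 2-fold higher in drop as deposited, and 2 of them at equal sums. The shares were 45.4% and 8.86% of all genes at that level. Outside the family, they were 68.2% and 11.7% of genes of like length in the level range of the 5 exchangers. That range was not set for these 11. Of the 11, 6 (CHX2, CHX3, CHX4, CHX7, CHX10 and CHX11) passed 10 FPKM through drop alone, where they are high, so their count is no support for a difference. CHX6A was at 16.4 FPKM in WT against 117 in drop, CHX9 at 26.8 and 115, and CHX5 at 40.1 and 111. CHX11 had the widest difference of the family, from 5.84 to 64.1 FPKM, a log2 ratio of 3.25 that was 1.79 at equal sums. CHX5 had the narrowest of the 11, with a log2 ratio of 1.45 as deposited and -0.02 at equal sums. Together the 18 summed to 155 FPKM in WT against 701 in drop, while the 10 exchangers summed to 709 and 3003. CHX23 alone made up 64.6% of the summed FPKM of all 28 CHX genes in WT and 60.8% in drop. CHX10 and CHX11, with 89.0% protein identity, share 70 stretches of 50 bases, so fragments may be divided between them.

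In 3 other families of potassium and proton carriers, NHX, KEA and KUP/HAK/KT, most genes were low. Of the 8 NHX sodium or potassium/proton exchangers, 2 reached 10 FPKM, and both were at least 2-fold higher in drop as deposited and 0 at equal sums, against 45.4% and 8.86% of all genes: the vacuolar exchangers NHX1 at 5.77 FPKM in WT against 31.6 in drop, and NHX4 at 13.01 and 49.99. Of the 6 KEA potassium efflux antiporters, 0 reached 10 FPKM. Of the 13 KUP/HAK/KT potassium transporters, only KUP2, listed as KT2, reached it, at 9.41 FPKM in WT against 94.1 in drop, a log2 ratio of 3.19 that was 1.72 at equal sums. NHX1 and KUP2 passed 10 FPKM through drop alone. In each library the 10 CHX exchangers summed to more FPKM than these 3 families together, whose sums were 21.7, 2.93 and 15.9 in WT and 85.2, 4.38 and 113 in drop.

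Genes with the most similar pair of values were found by distance in log2(FPKM + 1) over the 2 libraries, which 2 points can define only loosely. Only genes with a symbol not starting with AT, and genes of the lists used here, were searched. Genes left out of the search may lie nearer. Nearest to CHX23 were the cellulase gene CEL3 at 555 and 2156 FPKM, the small GTPase gene RABB1C and the UDP-xylose synthase gene UXS3. Nearest to CHX19 was the kinase gene BSK11 at 44.6 and 269 FPKM, followed by the thioredoxin gene ACHT3 and the inositol transporter gene INT3. DGK4, MAPKKK5 and GAT1_2.1 were nearest to CHX21, and NAP1;2, TET16 and AVA-P1 to CHX8. CHX15 lay nearest to MHK, UBC1 and ADC1.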

How the data were processed

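The authors deposited FPKM values, 1 column per library, per the file headers. The submitters' processing notes list TopHat2 2.0.14, Cufflinks 2.2.1 and TAIR10, while the sources used here do not give parameters, annotation release or strand setting. The columns were read as deposited with pandas 2.3.3 under Python 3.11.15. Log2 ratios used a pseudocount of 1 FPKM. A gene was higher or lower when it passed 2-fold on that scale and reached 10 FPKM in 1 library or both, and medians were taken over genes that reached 1 FPKM or, where stated, 10 FPKM. No test was run, since each genotype has 1 library. Alternatives were pseudocounts of 0.1 and 10, filters of 1, 50 and none, a 4-fold rule and 4 scalings. These were equal sums, a median ratio set to 1 over genes that reach 10 FPKM in both libraries (the median-ratio scaling), quantile normalization, and sums made equal after leaving out the 50 highest genes and the organelle genes (trimmed sums).

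Depth is unknown. Fragments were estimated as FPKM multiplied by the longest annotated length, over the value of a single fragment. That value was the median of the fullest window 0.25 log2 units wide below 0.4 FPKM kb, over genes with a single transcript of 3 kb or more (38 genes fell in it in WT and 74 in drop). By the definition of FPKM, the larger value in drop, 0.245 FPKM kb against 0.134 in WT, would mean fewer mapped fragments in drop. Such estimates are approximate, and fragments are not independent molecules, because PCR copies were not marked.

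Names, transcripts, promoters and coding sequences came from RefSeq TAIR10.1, by locus tag. It matched 32810 of 33557 identifiers and 28 of 28 CHX genes. The deposited table holds no coordinates, so those printed belong to TAIR10.1 alone. Proteins were aligned globally with Biopython 1.88. Members and lists were chosen with earlier results of these data known. Named genes were the 10 members, list genes of at least 10 FPKM, marker genes and the 3 nearest named genes per member of at least 10 FPKM. CHX16, CHX17, CHX18 and CHX20, XIF, AT2G31920, AT3G17626, AT5G41612 and NRPB11 were named for their subgroup or overlap after their values were seen. AT3G03515, which has no deposited value, was also named for its overlap.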

Additional observations from a re-analysis of the deposited data

How the results depend on the processing

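No paired analysis was possible because WT and drop have a single library each, and no library could be left out. Of the exchangers, 5 (CHX15 with 10 FPKM through drop alone) passed 2-fold upward in drop as deposited, against 45.4% of all genes tested. At equal sums 1 did so, against 8.86%. With the median-ratio scaling and with trimmed sums 3 did so, against 15.9% and 15.7% of all genes. The number was 4 under quantile normalization, against 35.2%, and 5 and 4 with pseudocounts of 0.1 and 10, against 46.6% and 33.1%. It was 6 of 7 with a filter of 1 FPKM, against 26.4%, and 6 of 10 with none, against 7.76%. The last share is over 33557 genes, of which 16824 were listed at 0 in both libraries. With a filter of 50 FPKM the number was 4, all that reached it, against 63.7%. CHX19 and CHX21 reached 50 FPKM through drop alone, where they are high. Their part in that count is no support for a difference. Under the 4-fold rule the number was 4, against 17.6%. Under each of these settings 0 exchangers were lower. Of all genes tested, 27.9% were lower as deposited, 43.4% at equal sums and 28.8% under quantile normalization. With the median-ratio scaling and with trimmed sums the share was 38.3%. With pseudocounts of 0.1 and 10 the shares were 28.5% and 20.5%. They were 30.4%, 20.3% and 8.94% with filters of 1, 50 and none, and 19.7% under the 4-fold rule. CHX24 is among the 7 exchangers of at least 1 FPKM through drop alone. Their median log2 ratio of 2.01 became 0.515 at equal sums, against -0.96 over all genes of at least 1 FPKM. With the median-ratio scaling it was 0.91, against -0.77, and with trimmed sums 0.90, against -0.78. Under quantile normalization it was 1.53, against 0.09. These shifts are set by the scaling itself. The share of CHX23 moved by less than 5 percentage points under either alternative. Of 60 log2 ratios of single exchangers under alternatives, 27 moved by over 1.5-fold and none of those at least 2-fold apart as deposited and of at least 10 FPKM changed sign. CHX13, CHX24 and CHX25 rest on fewer than 20 estimated fragments in each library and stayed below 10 FPKM, so no call was made on them at that filter.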

Other observations

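Several CHX genes lie side by side in the genome, and neighbours were alike in level in some of these groups and apart in others. CHX5 and CHX6A, 961 bases apart on chromosome 1, were close in drop at 111 and 117 FPKM, but held 40.1 and 16.4 in WT. CHX6B, 390 bases from CHX6A, was at 2.70 and 3.04 FPKM, 1.12-fold apart between the libraries as deposited where CHX6A was 7.15-fold apart. At equal sums the log2 ratio was -0.83 for CHX6B and 1.29 for CHX6A. On chromosome 3, CHX11 and CHX12 are 2345 bases apart and were at 64.1 and 63.1 FPKM in drop, with 5.84 and 11.9 in WT. CHX10, 1966 bases from CHX11, was at 8.95 and 32.7 FPKM, and CHX4, 481 bases from CHX12, at 6.65 and 35.5. CHX26 and CHX27 are 665 bases apart on chromosome 5, with CHX26 at 12.9 and 52.2 FPKM and CHX27 at 0.607 and 0.118. CHX3 and CHX9, 1058 bases apart on that chromosome, held 6.71 and 26.8 FPKM in WT, against 39.9 and 115 in drop. CHX6B and CHX27 were singled out after their values were seen.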
